A study of Mus musculus with 20 samples.

Results

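Type I interferon-stimulated genes are the genes that cells switch on when alpha or beta interferon binds their surface, and 40 of them, listed by symbol, were followed through mouse livers labelled as Ogt knockout (KO) or wild type (WT). For each symbol the brightest array feature, by its mean over the 20 arrays, was taken, which gave 38 of the 40 genes among 19505 genes tested. The other 2, Ifi44 and Ifi47, were not analysed here. Liver RNA was hybridised to 20 Clariom S Mouse arrays, a short-probe gene expression array, with 5 mice in each of 4 groups: KO at 4 weeks of age, WT at 4 weeks, KO at 8 weeks and WT at 8 weeks. The genotype labels read OGTL KO and OGTL WT. Ogt encodes O-GlcNAc transferase, which modifies proteins inside the cell by adding N-acetylglucosamine to their serines and threonines. The allele, the driver and timing of the deletion, the strain and the sex are not given in the sources used here. All groups shared one tissue, snap-frozen liver ground to powder, so each value mixes hepatocytes with every other cell type of the organ.

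Signals are log2 values as deposited, so 1 unit is a 2-fold difference, and the 38 genes ranged from 3.01 to 14.81. A group mean was called above background when it passed the 95th percentile of the group means of olfactory and vomeronasal receptor genes, which lay at 5.04 in KO at 4 weeks, 5.02 in WT at 4 weeks, 5.02 in KO at 8 weeks and 5.20 in WT at 8 weeks. By that level 34, 33, 31 and 30 of the 38 genes were above background in those groups. All 10 measured hepatocyte markers were above background in every group, with a mean level per array of 18.05 to 18.30 in KO and 18.36 to 18.46 in WT livers at 4 weeks, which did not overlap, and of 18.25 to 18.34 in livers labelled KO and 18.31 to 18.49 in WT livers at 8 weeks. At 4 weeks all 10 differences were negative, with a median of -0.21. Of the 10, 1 was called lower and 0 higher, against 5.48% of all genes lower and 4.70% higher. These mean levels exceed 16, the ceiling of a scanner's log2 range, so the size of the shift may be stretched. The part of this shift in the differences of the 38 genes was not tested. Ogt itself averaged 8.14 ± 0.53 in KO livers and 9.57 ± 0.31 in WT livers at 4 weeks (SD, n = 5 each), a difference of -1.43 that left 37.1% of the WT signal (limma adjusted p = 8.82e-05). At 8 weeks it averaged 9.81 ± 0.21 in livers labelled KO and 10.08 ± 0.20 in WT livers, a difference of -0.27 that was not called (limma adjusted p = 0.529, 95% confidence interval -0.69 to 0.16), so the 8-week group is named by its label throughout. From 4 to 8 weeks Ogt rose by 1.67 in livers labelled KO (limma adjusted p = 9.46e-06). In WT livers it rose by 0.51 without a call (limma adjusted p = 0.136). The array numbers in the titles follow the groups, so array order and group cannot be told apart.

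As background, type I interferons bind the receptor pair IFNAR1 and IFNAR2, whose kinases TYK2 and JAK1 activate the complex ISGF3. This complex, which holds STAT2 and IRF9, enters the nucleus and binds the interferon-stimulated response element in promoters. The genes so induced block viral entry, translation and replication, sense foreign RNA, and feed back on the pathway. Hepatocytes and the liver's macrophages both respond to interferon.

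At 4 weeks 33 of the 38 genes were higher in KO livers and 0 were lower (limma, Benjamini-Hochberg adjusted p below 0.05), against a background of 4.70% of all genes called higher and 5.48% called lower. At an unadjusted p below 0.05 in limma the count was 35 higher and 0 lower. For this and all later counts at that cutoff, the share of all genes is not given here. The median difference over the 38 was 1.52 log2 units, against 0.00 over all genes, and single differences ran from 0.19 to 4.15. All 5 KO livers lay above all 5 WT livers for 22 of the 38 genes, as they did for 4.06% of all genes. The difference was called and at least 2-fold for 28 genes, and at least 8-fold for 6. The 5 genes not called were Oas2 (0.37), Oas3 (0.19), Bst2 (1.22), Irf1 (0.56) and Ifi27l2a (0.47). In whole liver, a change in the number of cells of a type and a change in RNA per cell cannot be told apart.

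**Figure D1:**
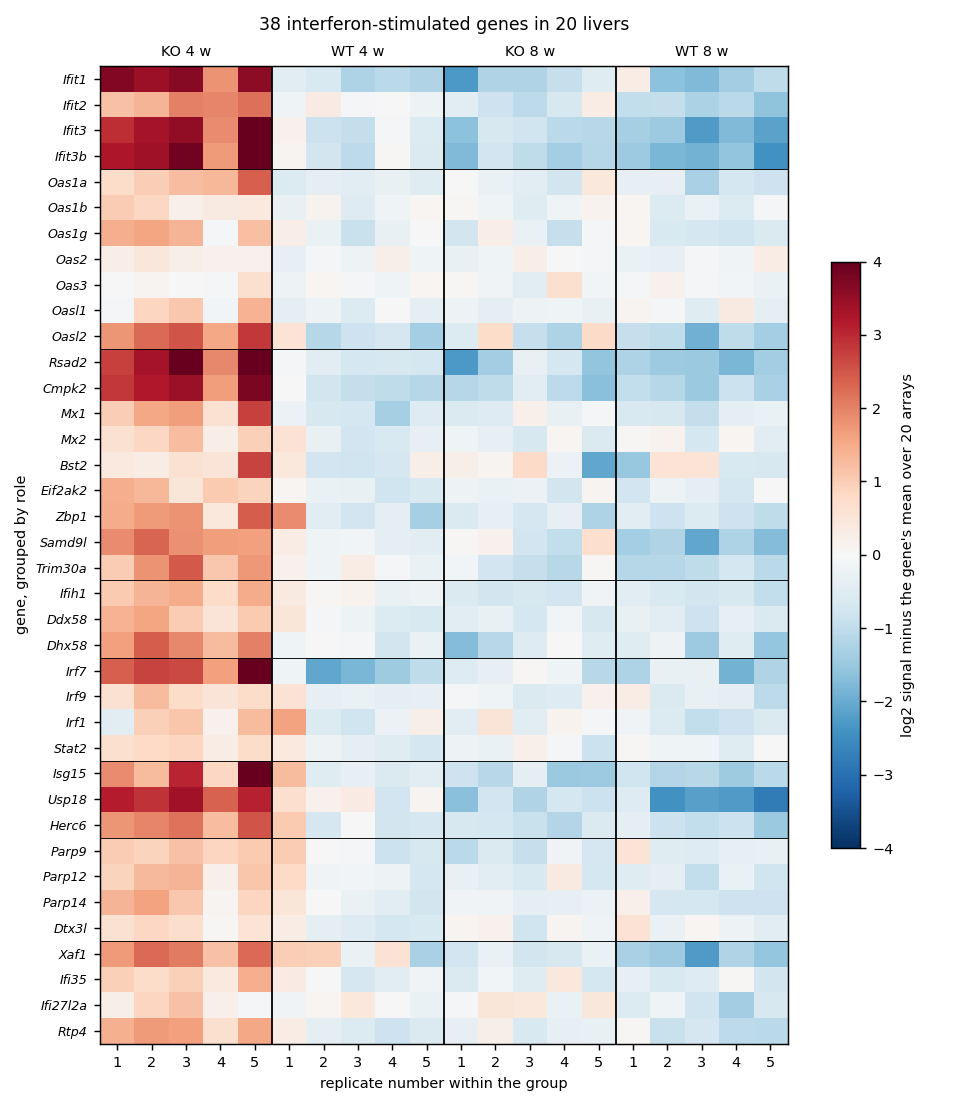
Each row is 1 of the 38 interferon-stimulated genes and each column 1 liver, numbered by replicate within KO at 4 weeks, WT at 4 weeks, KO at 8 weeks and WT at 8 weeks. Colour gives the log2 signal minus that gene's mean over the 20 arrays (red above, blue below), and the red block marks the 5 KO livers at 4 weeks, where 33 of the 38 genes were called higher than in WT.

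Some of the IFIT proteins bind viral RNA by its 5′ end and hold back its translation. All 4 measured IFIT genes were higher in KO livers at 4 weeks, with a median difference of 3.83, and in each of them the 2 groups of livers did not overlap. Ifit1, whose protein recognises RNA lacking the host's cap methylation, had log2 signals of 11.53, 11.25, 11.47, 9.61 and 11.40 in the 5 KO livers, against 7.38, 7.21, 6.58, 6.74 and 6.61 in the 5 WT livers. Every KO liver was more than 2 log2 units above the highest WT liver, although KO replicate 4 stood well below the other KO livers. The difference of 4.15 log2 units (SE 0.39, limma adjusted p = 1.11e-06) was the largest of the 38 genes. Ifit3b differed by 3.92, Ifit3 by 3.75 and Ifit2 by 1.75. Ifit3 and Ifit3b are near-identical copies, so their features may share signal, as may those of the paralogs Oas1a and Oas1g.

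The promoters of Ifit1 and of the antiviral gene Rsad2 are shown because both genes differed by more than 8-fold at 4 weeks and both carry the core of an interferon-stimulated response element. The sequences are RefSeq's (GRCm38.p6), 5′ to 3′ on the gene's strand, 250 bases ending just before the annotated start. Capitals mark 2 copies of GAAA with any 2 bases between them, or the reverse complement.
Ifit1, chr19:34640639-34640888, + strand: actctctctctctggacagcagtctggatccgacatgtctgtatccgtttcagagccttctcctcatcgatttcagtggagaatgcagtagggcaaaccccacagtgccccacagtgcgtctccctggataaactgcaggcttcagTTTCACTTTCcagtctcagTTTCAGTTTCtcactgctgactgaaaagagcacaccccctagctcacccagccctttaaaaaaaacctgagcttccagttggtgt
Rsad2, chr12:26456453-26456702, - strand: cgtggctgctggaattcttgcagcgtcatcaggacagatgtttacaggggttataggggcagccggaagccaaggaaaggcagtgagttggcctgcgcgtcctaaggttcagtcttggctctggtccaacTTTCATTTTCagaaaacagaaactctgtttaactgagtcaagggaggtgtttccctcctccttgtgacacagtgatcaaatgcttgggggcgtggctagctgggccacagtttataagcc
Shorter stretches around the match follow for genes chosen after their sequences were seen, to show how the core repeats or overlaps within 1 promoter and how paralogs compare.
Ifit3, chr19:34583365-34583424, + strand: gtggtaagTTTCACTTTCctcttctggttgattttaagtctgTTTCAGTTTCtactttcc
Ifit3b, chr19:34607761-34607820, + strand: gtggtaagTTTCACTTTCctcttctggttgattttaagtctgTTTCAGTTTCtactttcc
Oas1a, chr5:120907526-120907553, - strand: cttctcggGAAATGGAAACTGAAAatct
Oas1g, chr5:120887614-120887639, - strand: cttctcggGAAATGGAAACTGAAAat
Isg15, chr4:156200867-156200904, - strand: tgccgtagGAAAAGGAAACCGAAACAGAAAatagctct
Bst2, chr8:71537579-71537610, - strand: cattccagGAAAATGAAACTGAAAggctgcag
Stat2, chr10:128270268-128270293, + strand: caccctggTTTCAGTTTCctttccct
Trim30a, chr7:104465212-104465237, - strand: ttctttagTTTCTTTTTCtcagttcc
Ifit3 and Ifit3b had the same 60 bases here, with 2 cores. Oas1a and Oas1g shared an overlapping pair of cores close to the start, and Isg15 had 3 that overlap. The motif was searched on both strands from 250 bases before to 50 bases after the start, overlaps between matches allowed. It was present for 14 of the 27 measured genes that the promoter table held (51.9%), against 3.99% of the 27025 symbols in the table, and for 11 of the 14 it lay before the start. Bst2 and Oas3, which hold it, were not called at 4 weeks. Irf1, which was not called either, showed no match to these letters in the window. Nor was a match seen for the called genes Ifit2, Oasl1, Oasl2, Cmpk2, Samd9l, Irf7, Irf9, Herc6, Parp12, Dtx3l, Xaf1 and Ifi35.

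The OAS proteins are sensors of double-stranded RNA, and the catalytic members make the short oligoadenylates that activate RNase L. Of 7 measured OAS genes 5 were higher in KO livers at 4 weeks, with a median difference of 0.92. Oasl2 moved most, with log2 signals of 9.43, 9.94, 10.18, 9.23 and 10.49 in the 5 KO livers, against 8.21, 6.52, 6.84, 7.0 and 6.31 in the 5 WT livers. The groups did not overlap, although WT replicate 1 stood above the other WT livers, and the difference was 2.88 log2 units (SE 0.39, limma adjusted p = 4.09e-05). Oas1a differed by 1.76, and by at least 1.36 when its WT mean, which was not above background, is set at the background level. Oas1g differed by 1.34 and Oas1b by 0.71. Oasl1 was called at 0.92, though not when only the 4-week arrays were fitted (limma adjusted p = 0.0543), and neither group was above background for it, nor for Oas2 and Oas3.

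The other antiviral effectors act at separate steps, and 8 of 9 were higher in KO livers at 4 weeks, with a median difference of 1.76. Rsad2 encodes viperin, which makes a chain-terminating nucleotide that stops viral polymerases, and Cmpk2, a nucleotide kinase gene that lies near it on the opposite strand of chromosome 12, can supply the precursor. Rsad2 had log2 signals of 11.61, 12.23, 12.99, 10.81 and 13.0 in the 5 KO livers, against 8.85, 8.46, 8.19, 8.24 and 8.18 in the 5 WT livers. Cmpk2 had log2 signals of 10.79, 11.16, 11.42, 9.62 and 11.72 in the 5 KO livers, against 7.99, 7.22, 7.01, 6.96 and 6.83 in the 5 WT livers. In both genes the lowest KO liver, replicate 4, was still above the highest WT liver, replicate 1. Rsad2 differed by 3.74 log2 units (SE 0.36, limma adjusted p = 1.24e-06). Cmpk2 differed by 3.74 log2 units (SE 0.31, limma adjusted p = 3.54e-07).

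Samd9l, a restriction factor that curbs translation, had log2 signals of 12.74, 13.18, 12.67, 12.53 and 12.48 in the 5 KO livers, against 11.14, 10.67, 10.73, 10.46 and 10.39 in the 5 WT livers. The KO livers spread over less than 1 log2 unit and lay wholly above the WT livers, with a difference of 2.04 log2 units (SE 0.26, limma adjusted p = 2.38e-05). Among the others, the dynamin-like GTPase genes Mx1 and Mx2 differed by 2.20 and 1.06, and Eif2ak2, which encodes the translation-blocking kinase PKR, by 1.42. Zbp1, a sensor of left-handed nucleic acid that can trigger necroptosis, differed by 1.76, with KO replicate 4 at 7.27 below WT replicate 1 at 8.74, and was not called when only the 4-week arrays were fitted (limma adjusted p = 0.0529). Trim30a, a mouse TRIM-family gene, differed by 1.63. Bst2, the tetherin gene whose product holds budding virions at the membrane, differed by 1.22 without a call (limma adjusted p = 0.146), with 1 KO liver at 14.18 and the other 4 at 11.79 to 12.10.

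Cytoplasmic RNA sensors were all higher in KO livers at 4 weeks, 3 of 3, without overlap between the groups. Dhx58 encodes LGP2, which modulates the other sensors, and had log2 signals of 8.90, 9.68, 9.19, 8.51 and 9.28 in the 5 KO livers, against 7.09, 7.24, 7.19, 6.54 and 7.0 in the 5 WT livers. The WT livers lay within 1 log2 unit of each other, and the difference was 2.10 log2 units (SE 0.30, limma adjusted p = 8.09e-05). Ddx58, which encodes RIG-I, differed by 1.30 and Ifih1, which encodes MDA5, by 1.21.

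Of the 4 transcription factors measured in the list, 3 were higher in KO livers at 4 weeks. Irf7, the factor that amplifies interferon alpha production and is itself interferon-induced, had log2 signals of 11.86, 12.20, 12.11, 11.12 and 13.62 in the 5 KO livers, against 9.30, 7.40, 7.66, 8.06 and 8.48 in the 5 WT livers. KO replicate 5 was highest and the groups stood apart, with a difference of 4.0 log2 units (SE 0.40, limma adjusted p = 1.92e-06). The ISGF3 subunit genes Stat2 and Irf9 differed by 0.94 and 0.92, and in both some KO and WT livers overlapped. Irf1, which responds to interferon gamma as well, differed by 0.56 without a call.

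The ISG15 system, which conjugates the ubiquitin-like protein ISG15 to other proteins, was higher in 3 of 3 genes, with a median difference of 2.40. Usp18 encodes the protease that removes ISG15 and also damps signalling at IFNAR2, and had log2 signals of 12.25, 12.0, 12.46, 11.45 and 12.16 in the 5 KO livers, against 9.78, 9.26, 9.42, 8.33 and 9.22 in the 5 WT livers. The lowest KO liver was more than 1 log2 unit above the highest WT liver, and the difference was 2.86 log2 units (SE 0.33, limma adjusted p = 1.10e-05). Isg15 differed by 2.40 with overlapping livers, and Herc6, the main ISG15 ligase gene in mice, by 2.13.

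The ADP-ribosyltransferase genes Parp9, Parp12 and Parp14 and the PARP9 partner Dtx3l, a ubiquitin ligase gene, were all called higher, 4 of 4, with a median difference of 1.07. In each of the 4, KO and WT livers overlapped. Parp14 had log2 signals of 9.89, 10.13, 9.59, 8.63 and 9.37 in the 5 KO livers, against 9.01, 8.51, 8.24, 8.08 and 7.79 in the 5 WT livers. KO replicate 4 lay below WT replicate 1, and the difference was 1.20 log2 units (SE 0.25, limma adjusted p = 0.00338). Parp9 was not called once the 3 arrays with skeletal muscle transcripts were left out (0.96, limma adjusted p = 0.0664).

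Of 4 further induced genes 3 were higher in KO livers at 4 weeks. Rtp4, a chaperone gene of receptor trafficking that in mice also restrains interferon responses, had log2 signals of 9.56, 9.85, 9.79, 8.80 and 9.70 in the 5 KO livers, against 8.43, 7.77, 7.59, 7.33 and 7.56 in the 5 WT livers. Xaf1, a gene that favours apoptosis, had log2 signals of 9.47, 10.03, 9.86, 8.96 and 10.04 in the 5 KO livers, against 8.77, 8.73, 7.52, 8.35 and 6.49 in the 5 WT livers. In Rtp4 the groups stood apart by a small gap, and in Xaf1 the WT livers alone spread over more than 2 log2 units. Rtp4 differed by 1.80 log2 units (SE 0.24, limma adjusted p = 3.91e-05). Xaf1 differed by 1.70 log2 units (SE 0.34, limma adjusted p = 0.00193). Ifi35 differed by 1.09. Ifi27l2a was not above background in either group.

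**Figure D2:**
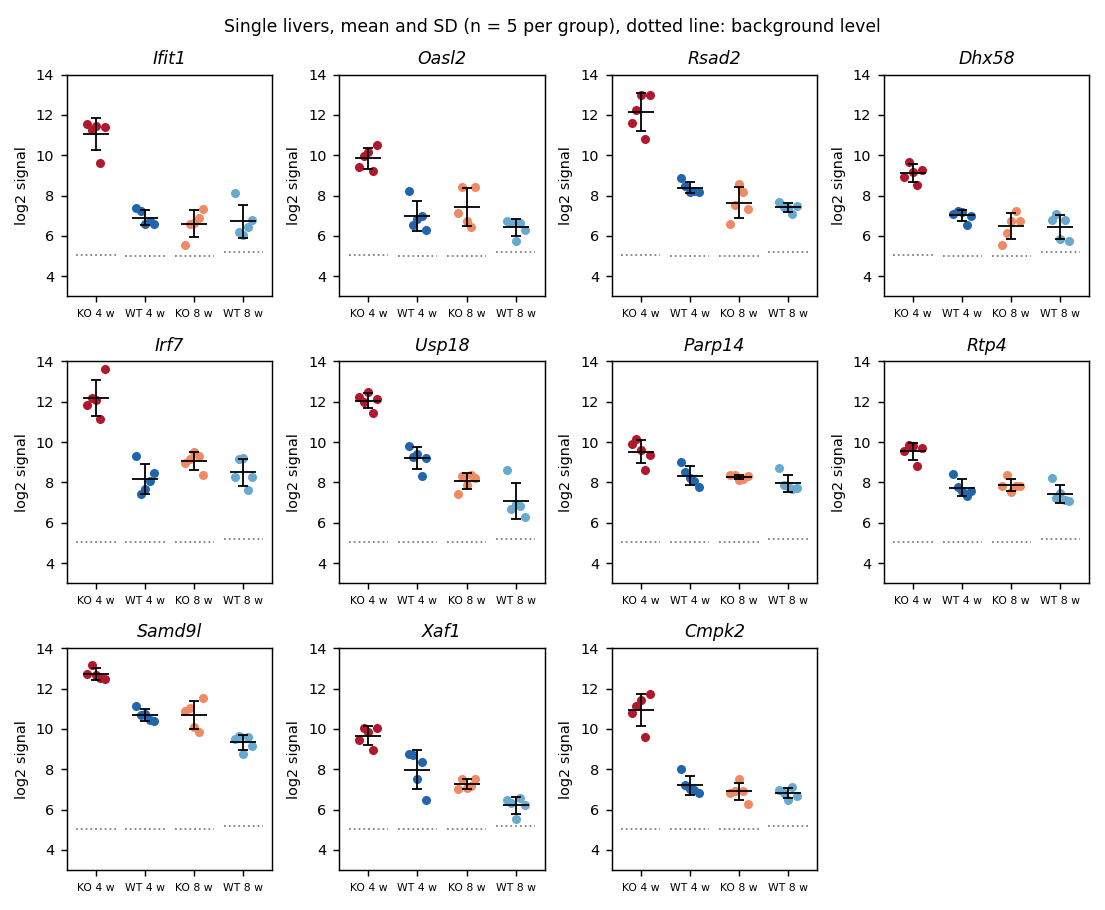
Points are log2 signals of single livers for 11 genes, in the order KO and WT at 4 weeks, then KO and WT at 8 weeks. Black bars give the mean and SD (n = 5 each) and dotted lines the background level of each group. The KO livers at 4 weeks stand above the other 3 groups in most panels, while at 8 weeks KO and WT points overlap except for Samd9l and Xaf1.

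At 8 weeks 2 of the 38 genes were called higher in livers labelled KO and 0 lower, against a background of 4.94% of all genes called higher and 1.65% lower. At an unadjusted p below 0.05 in limma there were 6 higher and 0 lower. Without the share of all genes at that cutoff, this count cannot be judged. Setting the array medians equal turned the split over all genes at 8 weeks into 817 higher and 727 lower, against 963 and 321 as deposited, and at 4 weeks into 716 and 1349, against 917 and 1068, while the counts for the 38 genes were the same. The median difference of the 38 was 0.15, against -0.04 over all genes, and single differences ran from -0.46 to 1.35. Livers labelled KO lay wholly above WT livers for 2 of the 38 genes, Samd9l and Xaf1, and for 4.13% of all genes.

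Samd9l had log2 signals of 10.91, 11.03, 10.08, 9.86 and 11.53 in the livers labelled KO, against 9.49, 9.64, 8.78, 9.62 and 9.13 in the WT livers. The 2 groups did not overlap, with a gap of under 1 log2 unit, and the difference was 1.35 log2 units (SE 0.26, limma adjusted p = 0.0021). Xaf1 had log2 signals of 7.02, 7.52, 7.05, 7.15 and 7.51 in the livers labelled KO, against 6.49, 6.31, 5.51, 6.56 and 6.22 in the WT livers. Here too the groups stood apart, but the difference of 1.03 log2 units (SE 0.34, limma adjusted p = 0.0712) was not called, and it passed when only the 8-week arrays were fitted (limma adjusted p = 0.00786). Ifi27l2a was called at 0.91 (limma adjusted p = 0.0206), with means of 4.59 ± 0.34 in livers labelled KO and 3.68 ± 0.44 in WT livers (SD, n = 5 each), neither above background. It lost the call without WT replicate 4, KO replicate 2 or KO replicate 5, with adjusted p from limma of 0.0664, 0.0616 and 0.0573.

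Of the genes that differed most at 4 weeks, Ifit1, Rsad2, Cmpk2 and Irf7 had no called difference at 8 weeks. Ifit1 had log2 signals of 5.53, 6.61, 6.62, 6.90 and 7.34 in the livers labelled KO, against 8.11, 6.17, 6.05, 6.44 and 6.81 in the WT livers. The highest of these 10 livers was WT replicate 1, and the difference was -0.12 log2 units (SE 0.39, limma adjusted p = 0.917). Rsad2 had log2 signals of 6.60, 7.51, 8.58, 8.19 and 7.32 in the livers labelled KO, against 7.66, 7.43, 7.39, 7.06 and 7.50 in the WT livers. Livers labelled KO spread over about 2 log2 units here, while the WT livers lay within 1. Cmpk2 had log2 signals of 6.82, 6.94, 7.53, 6.91 and 6.29 in the livers labelled KO, against 6.97, 6.83, 6.48, 7.10 and 6.67 in the WT livers. Irf7 had log2 signals of 8.97, 9.16, 9.53, 9.32 and 8.36 in the livers labelled KO, against 8.25, 9.18, 9.19, 7.60 and 8.29 in the WT livers. In both genes the groups overlapped, and the differences of 0.09 and 0.57 were not called.

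Usp18 had log2 signals of 7.42, 8.33, 7.88, 8.39 and 8.24 in the livers labelled KO, against 8.59, 6.68, 6.92, 6.82 and 6.30 in the WT livers. A single WT liver, replicate 1, exceeded every liver labelled KO. The difference of 0.99 log2 units (SE 0.33, limma adjusted p = 0.0845) was not called, and became 1.37 with a limma adjusted p of 0.00253 without that liver. Oasl2 had log2 signals of 7.12, 8.40, 6.76, 6.42 and 8.43 in the livers labelled KO, against 6.75, 6.65, 5.74, 6.65 and 6.30 in the WT livers. Livers labelled KO fell on both sides of the WT livers' highest value, and the difference of 1.01 was not called (limma adjusted p = 0.141).

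Dhx58 had log2 signals of 5.54, 6.14, 6.74, 7.25 and 6.76 in the livers labelled KO, against 6.77, 7.06, 5.82, 6.77 and 5.72 in the WT livers. Parp14 had log2 signals of 8.37, 8.38, 8.14, 8.19 and 8.30 in the livers labelled KO, against 8.71, 7.85, 7.82, 7.68 and 7.70 in the WT livers. Rtp4 had log2 signals of 7.82, 8.39, 7.54, 7.83 and 7.84 in the livers labelled KO, against 8.20, 7.25, 7.46, 7.11 and 7.07 in the WT livers. In all 3 genes the groups overlapped, with differences of 0.06, 0.32 and 0.47. For Parp14 and Rtp4, WT replicate 1 was the highest of its group, by under 1 log2 unit.

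**Figure D3:**
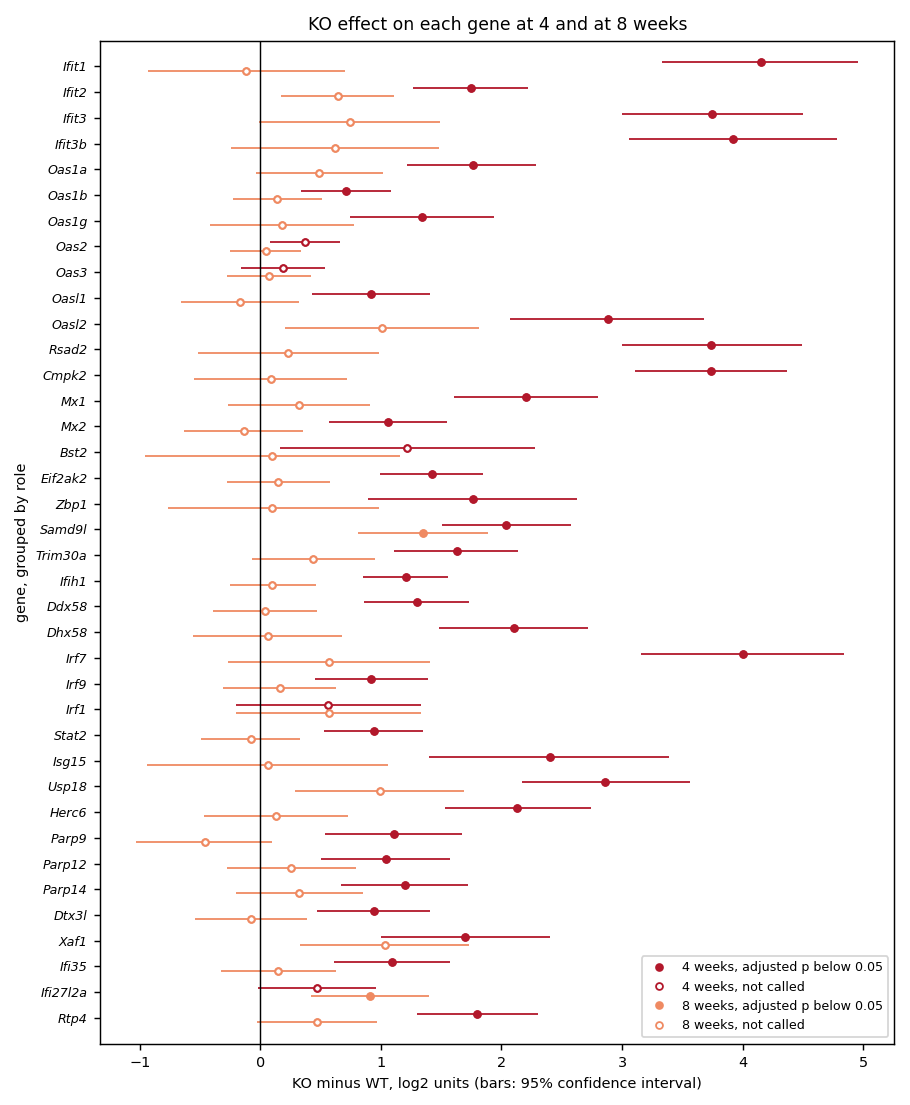
For each of the 38 genes, points give KO minus WT in log2 units at 4 weeks (dark red) and at 8 weeks (orange), with 95% confidence intervals as bars, and filled points mark an adjusted p below 0.05. At 4 weeks 33 points are filled, between 0.71 and 4.15, and at 8 weeks 2, Samd9l and Ifi27l2a.

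The difference between the ages was tested itself, as KO minus WT at 8 weeks less KO minus WT at 4 weeks. It was lower than 0 by the test for 16 of the 38 genes and higher for 0, against a background of 1.0% of all genes called lower and 2.05% called higher. At an unadjusted p below 0.05 in limma it was 31 lower and 0 higher, again without the share of all genes at that cutoff. The median over the 38 was -1.19 log2 units, against -0.02 over all genes. The largest were Ifit1 at -4.26 log2 units (SE 0.56, limma adjusted p = 2.36e-04), Cmpk2 at -3.65 and Rsad2 at -3.51, followed by Irf7 at -3.44, Ifit3b at -3.30 and Ifit3 at -3.01. All 3 RNA sensor genes were among the 16, with Dhx58 at -2.04, Ddx58 at -1.26 and Ifih1 at -1.10. The others were Herc6 (-2.01), Mx1 (-1.88), Usp18 (-1.87), Parp9 (-1.57), Rtp4 (-1.34), Eif2ak2 (-1.28) and Stat2 (-1.02). Of 30 alternatives, among them each array left out in turn, Stat2 lost this call in 18, Rtp4 in 12, Usp18 in 6, Parp9 in 6 and Eif2ak2 in 1, with adjusted p from limma of 0.0501 to 0.0861 where it was lost. None of the 7 OAS genes was called, although Oasl2 stood at -1.87 (limma adjusted p = 0.0688). Samd9l and Xaf1 stood at -0.69 and -0.67 without a call.

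Within genotypes, 33 of the 38 genes were lower at 8 than at 4 weeks in KO livers, with a median of -1.66, against a background of 6.78% of all genes lower and 7.85% higher. In WT livers 8 of the 38 were lower, with a median of -0.35, against 5.23% of all genes lower and 3.71% higher. None of the 38 was higher with age in either genotype, at an adjusted or an unadjusted p below 0.05 in limma. The 8 were Usp18 (-2.14), Xaf1 (-1.75), Ifit3b (-1.40), Samd9l (-1.35), Ifit3 (-1.33), Ifit2 (-1.16), Trim30a (-1.0) and Ifih1 (-0.69). Ifit3b lost the call in 9 of 20 alternatives, the replicate block (limma adjusted p = 0.0613) among them, and Ifit3 in 4. In KO livers Dtx3l lost its call in 12 of 20. Ifit2 was no longer above background in WT livers at 8 weeks, which makes its fall there at least 0.14 log2 units. For 23 of the 38 genes the mean of livers labelled KO at 8 weeks was below the WT mean at 4 weeks. The share of all genes for which this held is not given here, so the count cannot be judged. These age comparisons use the same arrays as the comparisons of KO with WT.

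Single livers departed from their groups in the same direction across many of these genes. The median log2 signal over the 38 genes was 9.56, 9.98, 9.85, 8.98 and 10.04 in the KO livers at 4 weeks, against 8.75, 7.62, 7.56, 7.72 and 7.50 in the WT livers. At 8 weeks it was 7.50, 7.97, 7.54, 7.84 and 7.87 in livers labelled KO, against 8.00, 7.23, 7.22, 7.10 and 6.89 in WT livers. KO replicate 4 at 4 weeks was the lowest of its group for 29 of the 38 genes, and WT replicate 1 at 4 weeks the highest of its group for 29. WT replicate 1 at 8 weeks was the highest of its group for 20. The matching shares of all genes are not given here, so these counts do not show a shift particular to the 38 genes. With any 1 array of the 2 groups left out, 33 or 34 genes were still called at 4 weeks.

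**Figure D4:**
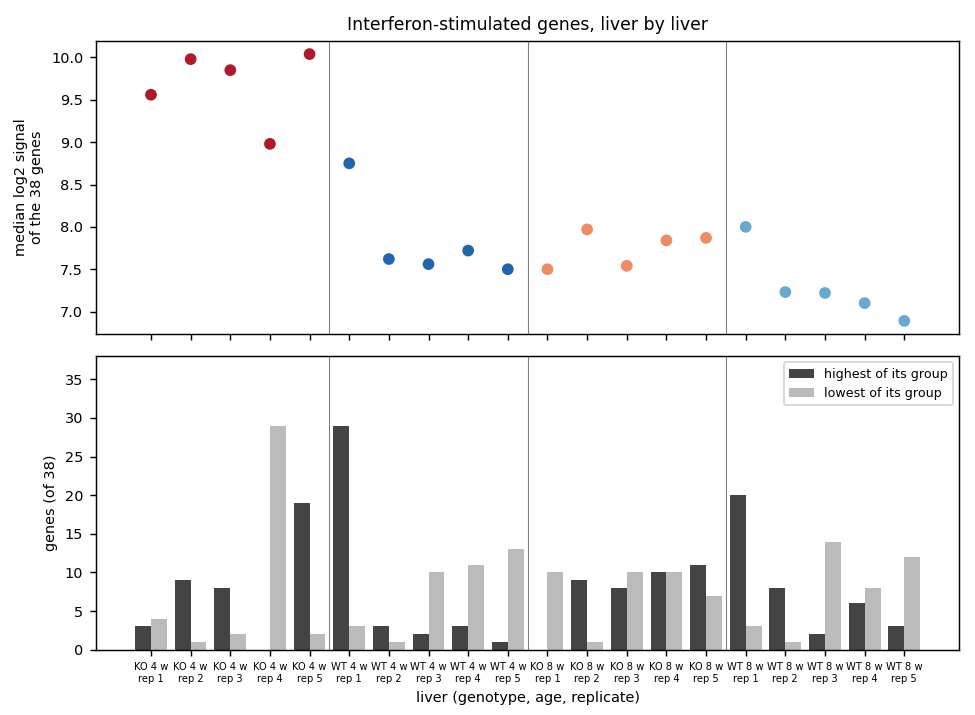
The upper panel gives the median log2 signal of the 38 genes in each liver, in the order KO and WT at 4 weeks, then KO and WT at 8 weeks. The lower panel counts the genes for which that liver was the highest (dark) or the lowest (light) of its group, ties counted for each, and shows 29 for WT replicate 1 (highest) and 29 for KO replicate 4 (lowest), both at 4 weeks.

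Skeletal muscle transcripts marked 3 of the 4-week arrays. Acta1, the skeletal muscle actin gene, stood at 15.04 in KO replicate 4, 15.43 in KO replicate 5 and 15.89 in WT replicate 4, against 4.24 to 6.11 in the other 17 arrays. Without these 3 arrays 32 of the 38 genes were called higher at 4 weeks, with a median difference of 1.51. The age difference in KO effect was then called for 16 genes, 13 of them shared with the fit of all arrays.

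Part of the monocyte and macrophage markers were called higher in KO at each age. Of all genes 4.70% were called higher and 5.48% lower at 4 weeks, and 4.94% and 1.65% at 8 weeks. Over 10 measured markers the mean level per array was 6.34 to 6.94 in KO livers and 5.86 to 6.18 in WT livers at 4 weeks, where 3 of the 10 were called higher. At 8 weeks it was 6.40 to 7.24 in livers labelled KO and 5.73 to 6.02 in WT livers, and 7 of the 10 were called higher. Of these 7 markers 5 were above background in at least 1 of the 2 groups, as were all 3 called at 4 weeks. Ly6c2, a gene of inflammatory monocytes, averaged 8.79 and 5.81 in KO and WT livers at 4 weeks, a difference of 2.98 (limma adjusted p = 5.63e-04). Macrophage lysozyme, Lyz2, differed by 0.29 at 4 weeks without a call and by 2.39 at 8 weeks. The mean level of these markers did not overlap between the groups at either age, and the part of these cells in the interferon-stimulated signal was not tested. Of the 8 Kupffer cell markers 2 were higher and 0 lower at 4 weeks, with a mean level per array of 8.52 to 9.41 in KO livers and 8.45 to 8.71 in WT livers. At 8 weeks 0 were higher and 1 lower, at 7.83 to 9.14 in livers labelled KO and 8.54 to 9.24 in WT livers. With age 6 of the 8 were lower and 1 higher in KO livers, with a median of -1.27. In WT livers 2 were lower and 1 higher, with a median of -0.57. Of all genes 6.78% were lower and 7.85% higher with age in KO livers, and 5.23% and 3.71% in WT livers. The largest single rise with age among the 8 was 5.54 in KO and 7.92 in WT livers, which weighs on their mean levels at 8 weeks. The age difference in KO effect was negative for all 8 Kupffer cell markers, with a median of -0.79, and called in limma for 0, with 4 lower and 0 higher at an unadjusted p below 0.05. The part of these cells in the fall of the 38 genes with age in KO livers was not tested. Among 14 T and NK cell markers 2 were higher and 1 lower at 4 weeks, at 4.68 to 5.06 in KO livers and 4.50 to 4.76 in WT livers. Only 5 of the 14, and 1 of the 2 higher, were above background in at least 1 of these groups. Of 7 markers of plasmacytoid dendritic cells, the main producers of interferon alpha, 1 was higher and 0 lower at 4 weeks, Lair1 by 0.79, and 2 were higher and 0 lower at 8 weeks, Tcf4 by 1.40 and Lair1 by 0.83. Their mean level per array was 6.71 to 7.93 in KO and 6.47 to 8.08 in WT livers at 4 weeks, and 6.65 to 6.92 in livers labelled KO and 6.26 to 6.60 in WT livers at 8 weeks. Siglech averaged 5.47 and 5.23 in KO and WT livers at 4 weeks without a call, and Ccr9 was not above background in either. At 8 weeks 5 of 6 cholangiocyte markers were higher and 0 lower, with a mean level per array of 7.13 to 9.70 in livers labelled KO and 5.10 to 6.08 in WT livers. Of 10 stellate cell markers 5 were higher and 0 lower at 8 weeks, at 8.65 to 9.48 in livers labelled KO and 7.34 to 8.19 in WT livers. The part of these cells in the 8-week values was not tested either.

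The ligands themselves did not pass the test. None of 16 measured type I interferon genes was called at either age, and at an unadjusted p below 0.05 there was 1 higher at 4 weeks and 2 lower at 8 weeks in limma. Only 3 of the 16 were above background in either 4-week group. Ifnb1 averaged 5.02 in KO and 5.04 in WT livers at 4 weeks, about the background level in both. Ifng, the type II ligand, was called higher at 4 weeks (3.88 in KO and 3.28 in WT livers, limma adjusted p = 0.0492) although neither mean was above background. Of 6 receptor genes 0 were called at 4 weeks, where at an unadjusted p below 0.05 there was 1 higher and 1 lower. Ifnar1 averaged 9.21 in KO and 9.44 in WT livers, and Ifnar2 14.48 and 14.75. At 8 weeks Ifngr1, a subunit gene of the interferon gamma receptor, was higher by 1.26 and Il10rb, whose product is shared by the interferon lambda and interleukin 10 receptors, by 1.39.

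Downstream, 0 of 9 kinase, STAT and IRF genes outside the 38 were higher at 4 weeks and 1 was lower, the receptor kinase gene Tyk2, by -0.49 (limma adjusted p = 0.0376). At an unadjusted p below 0.05 the count was the same, 0 higher and 1 lower. Of 19 other nucleic acid sensors and adaptors 6 were higher (31.6%) and 1 lower (5.26%) at 4 weeks, against 4.70% of all genes higher and 5.48% lower. The DNA-sensing gene Ifi204 differed by 1.76, the kinase gene Tbk1 by 0.81, and the endosomal RNA receptor genes Tlr7 and Tlr3 by 1.17 and 1.15. Ticam1, which encodes the adaptor of TLR3, was lower, at -0.94. Of 14 genes that restrain nucleic acid sensing or interferon signalling 4 were higher (28.6%) and 1 lower (7.14%) at 4 weeks. In both lists the share called lower was near that of all genes. Samhd1, which depletes nucleotides, differed by 1.87, the RNA-editing gene Adar by 1.05 and the ubiquitin-editing gene Tnfaip3 by 1.11, while of the RNase H2 subunit genes Rnaseh2b was higher, at 0.72 (limma adjusted p = 0.0489), Rnaseh2c lower, at -0.80, and Rnaseh2a not called, at 0.06. At 8 weeks 4.94% of all genes were called higher and 1.65% lower. Of the 19 sensors and adaptors 4 were higher at that age and 0 lower. Among them were Ifi204, by 1.30, and the DNA-sensing adaptor gene Sting1, by at least 1.16, its WT mean not being above background. Of the restraining genes 1 was called at 8 weeks, Tnfaip3, by 1.45, and of the kinase, STAT and IRF genes 0, with 0 higher and 2 lower at an unadjusted p below 0.05.

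A second list of 52 measured interferon-induced genes outside the 38 was called in part at each age. At 4 weeks 26 of 52 were higher and 0 lower, with a median of 0.85, against 4.70% of all genes higher and 5.48% lower. Cxcl10, a chemokine gene for T cells, differed by 3.85, Ms4a4c by 3.13, Ifi211, of the DNA-binding PYHIN family, by 2.07, and Phf11b by 1.49. At 8 weeks 12 of 52 were higher and 0 lower, with a median of 0.32, against 4.94% of all genes higher and 1.65% lower. Ifi27l2b averaged 8.13 in livers labelled KO and 4.87 in WT livers at 8 weeks, and since the WT mean was not above background the difference was at least 2.93. Ifi211 differed by 1.55 at 8 weeks. Genes called higher at both ages were 11 of the 26 higher at 4 weeks and 11 of the 12 higher at 8 weeks, against 1 of 33 and 1 of 2 among the 38. Whether these shares differ was not tested. The share of all genes called higher at both ages is not given here, so these counts cannot be judged against it. Of 15 genes induced mainly by interferon gamma 5 were higher at 4 weeks, among them Cxcl9 (3.70), Gbp4 (2.27), Gbp2 (2.0) and H2-Aa (1.88), and 3 at 8 weeks, which were the antigen-presentation genes H2-Aa (3.55), H2-Ab1 (2.96) and H2-Eb1 (2.71).

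**Figure D5:**
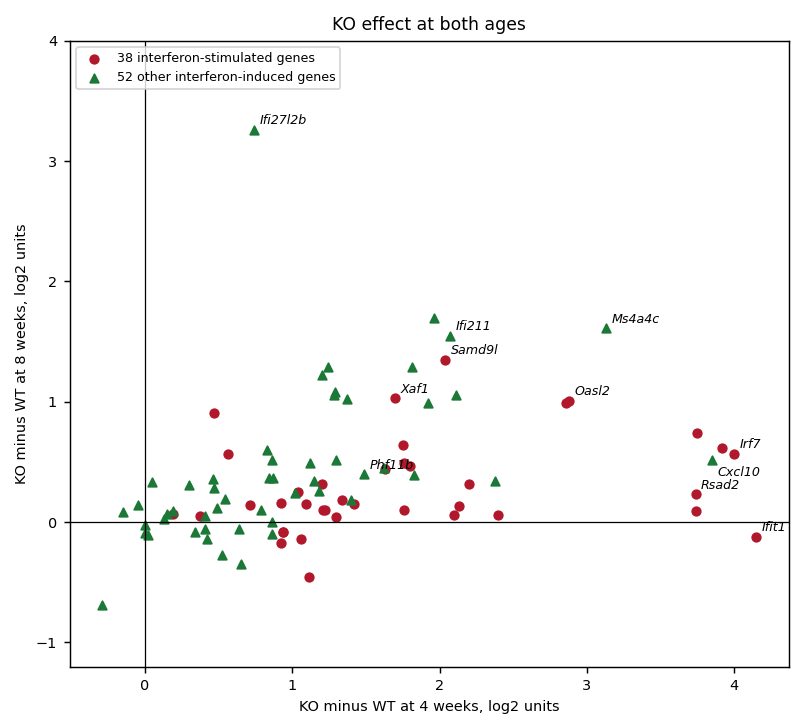
Each point is 1 gene, with KO minus WT in log2 units at 4 weeks on the horizontal axis and at 8 weeks on the vertical axis, for the 38 interferon-stimulated genes (circles) and the 52 other interferon-induced genes (triangles). Ifit1 and Irf7 lie far right, at 4.15 and 4.00, and at -0.12 and 0.57 on the vertical axis, while Ifi27l2b, Ms4a4c, Ifi211 and Samd9l are among the genes above 1 at 8 weeks.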

How the data were processed

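RNA from 20 mouse livers, 5 per genotype and age, was hybridised to Clariom S Mouse arrays and grouped by the genotype and age labels. The deposited values are log2 signals that the authors made with RMA in Affymetrix Expression Console, per the submitters' processing notes; their versions are not given in the sources used here. They were used without further scaling. Array medians were 5.42 to 5.58, and 254 to 288 of the 22206 features per array exceeded 16, the ceiling of a scanner's log2 range, so the largest signals on the array may be stretched; no value of the 38 genes did. Features with 1 symbol numbered 19572 and those with none 2634; 67 further features of 55 symbols were removed. The number of arrays limits the precision.

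Group means were fitted with limma 3.58.1 (R 4.3.3, eBayes, 16 residual degrees of freedom), with Benjamini-Hochberg adjustment over 19505 genes and calls at 0.05. On simulated data for KO against WT at 4 weeks on 19505 genes, 84 of 100 changes of size 1 and 100 of 100 of size 2 were recovered, with 13 false calls of 197. The simulated noise was independent and normal, with the same SD in every group for a gene, and no other genes were changed. These rates therefore need not hold for the real arrays, where livers departed together and SDs differed between groups. The members and lists were chosen with earlier results of these data known. Values of single arrays are given for the gene of largest difference at 4 weeks in each role, and for the 3 genes of largest difference at 8 weeks and of largest age difference in KO effect. The named genes outside the 38 are up to 4 per list with the smallest adjusted p at 4 weeks and 2 at 8 weeks, plus the ligand Ifnb1 and the receptor genes Ifnar1 and Ifnar2. Cell type markers, Tlr3, Rnaseh2a, Rnaseh2b and the genes induced mainly by interferon gamma were named after their values were seen. Deviations of same-numbered arrays were compared, and the numbers were not taken as pairing the livers. Alternatives were 10 settings of scaling, filter, model and arrays, and each array left out in turn.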

Additional observations from a re-analysis of the deposited data

Results flagged for a closer look

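In 15 of 240 groups of 5 livers tested, 1 liver stood far from the other 4, which chance does in about 1 of 20 groups. KO replicate 4 at 4 weeks was low for Ifit1 (9.61, the others 11.25 to 11.53), Oas1g (5.31, the others 6.60 to 6.98) and Rtp4 (8.80, the others 9.56 to 9.85). KO replicate 5 at 4 weeks was high for Oas3 (4.08, the others 3.40 to 3.56) and Bst2 (14.18, the others 11.79 to 12.10), and KO replicate 2 for Irf9 (9.04, the others 8.30 to 8.51). WT replicate 1 at 4 weeks was high for Irf9 (8.35, the others 7.39 to 7.51) and Isg15 (6.99, the others 5.13 to 5.38), and WT replicate 3 for Ifi27l2b (7.24, the others 5.93 to 6.28). At 8 weeks, replicate 5 labelled KO was high for Ifih1 (10.88, the others 10.25 to 10.42) and WT replicate 4 for Trim30a (6.07, the others 5.62 to 5.75). WT replicate 1 at 8 weeks was high for Oas1g (5.47, the others 4.62 to 4.81), Usp18 (8.59, the others 6.30 to 6.92), Parp9 (9.84, the others 8.78 to 8.99) and Parp14 (8.71, the others 7.68 to 7.85).

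The KO effect differed between 8 and 4 weeks, by limma's test of the difference, for 22 of the named genes. Those outside the 38, other than Ogt, were named by their adjusted p at 4 or 8 weeks, which enters this difference. Over the whole second list of 52 genes it was lower for 7 and higher for 1, against 1.0% of all genes lower and 2.05% higher. Of the 19 other sensors and adaptors 0 were lower and 1 was higher, Tlr4 (1.70), which that rule did not name. Among the 38 genes it was called for 16: Ifit1 (-4.26), Ifit3 (-3.01), Ifit3b (-3.30), Rsad2 (-3.51), Cmpk2 (-3.65), Mx1 (-1.88), Eif2ak2 (-1.28), Ifih1 (-1.10), Ddx58 (-1.26), Dhx58 (-2.04), Irf7 (-3.44), Stat2 (-1.02), Usp18 (-1.87), Herc6 (-2.01), Parp9 (-1.57) and Rtp4 (-1.34). Outside them it was lower at 8 weeks for Cxcl10 (-3.33), Ms4a4c (-1.51) and Phf11b (-1.10), and higher for Ifi27l2b (2.52) and Ifngr1 (1.36). For Ogt the value of 1.16 marks a smaller loss at 8 weeks, -0.27 against -1.43 at 4 weeks.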

How the results depend on the processing

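Of 4170 recomputed differences of the 38 genes, 4047 kept their direction and side of the threshold, 75 lost the call, 48 gained one and 0 called values turned sign; another 75 without a call did. In every alternative, 30 of the 33 genes called at 4 weeks stayed called (not Zbp1, Parp9 and Oasl1), as did 1 of 2 at 8 weeks, 11 of 16 for the age difference in KO effect, 6 of 8 in WT and 31 of 33 (not Dtx3l and Oasl1) in KO with age. Leaving out 1 array gave 33 to 34 members higher at 4 weeks, 1 to 3 at 8 weeks and 12 to 21 for the age difference; the 1 at 8 weeks arose without WT replicate 4, KO replicate 2 or KO replicate 5. Over all genes it gave 199 to 332 lower at 8 weeks (199 without KO replicate 5, 203 without WT replicate 3, 207 without KO replicate 2), 247 to 528 with a higher KO effect at 8 weeks (247 without the 8-week KO replicate 1, 251 without the 4-week KO replicate 2) and 472 to 733 higher with age in WT (472 without the 4-week WT replicate 4). With array medians set equal 727 genes were lower at 8 weeks, against 321; the cause was not tested. Same-numbered arrays did not deviate together in every pair (correlations of -0.15 to 0.48 at 4 weeks, -0.18 to 0.14 at 8 weeks, and 2 of 5 KO arrays correlating best with their own number at each age). The replicate block gave 33 members higher at 4 weeks, 2 at 8 weeks and 16 for the age difference, 8 lower with age in WT (Ifit3b lost, Ifi27l2a gained) and 33 in KO, and 258 genes lower at 8 weeks. The differences of genes at or below background are limited by the array's floor.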
